A study of Homo sapiens with 12 samples.

Results

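TXNIP, 3 genes of its arrestin-domain family (ARRDC2, ARRDC3 and ARRDC4) and the transcription factor genes MLX and MLXIP were followed across 6 conditions of 2 lymphoma cell lines. These 6 genes were listed by gene name, with earlier results of these data known, out of the 58884 genes of the count table. RNA was sequenced from U2932 and TMD8, established cell lines of diffuse large B-cell lymphoma (DLBCL) labelled as wild type, after 4 h with 20 µg/mL of rituximab (R), ofatumumab (OF) or a human IgG1 isotype antibody. R and OF bind different epitopes of CD20, a surface protein of B cells, and the comparisons ask how the transcriptional response to each antibody differs from isotype and from the other antibody. Each condition had 2 libraries, numbered replicate 1 and 2, and the labels say that each line had been kept as 2 separate cultures for a week before treatment. All groups share the medium, the time and the dose of IgG, and each line is a single cell line as a model.

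TXNIP binds reduced thioredoxin and, with clathrin adaptors, promotes the removal of glucose transporters from the cell surface. The other arrestin-domain proteins act as adaptors that bring ubiquitin ligases of the NEDD4 family to membrane proteins. MLXIP (also called MondoA) pairs with MLX, enters the nucleus when glucose 6-phosphate accumulates, and activates TXNIP and ARRDC4 through carbohydrate response elements, pairs of E-box-like sequences in their promoters. TXNIP mRNA and protein turn over quickly, which makes TXNIP a common readout of this pathway in cultured cells.

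The promoter stretches of TXNIP and ARRDC4 are shown because these genes are textbook targets of the MLXIP and MLX pair. They are RefSeq sequences of GRCh38.p14, each running 5′ to 3′ on the gene's strand from 250 to 31 bases before the annotated start. TXNIP is on the minus strand at chr1:145996610-145996829, and its capitals mark both 6-base sides of a match to the pair CACGTGNNNNNCACGTG. ARRDC4 is on the plus strand at chr15:97960453-97960672, and its capitals mark a single CACGTG.
TXNIP: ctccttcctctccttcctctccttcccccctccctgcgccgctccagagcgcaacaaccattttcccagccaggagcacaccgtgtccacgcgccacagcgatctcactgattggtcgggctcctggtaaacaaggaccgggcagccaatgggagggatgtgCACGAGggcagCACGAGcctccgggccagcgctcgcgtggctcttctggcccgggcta
ARRDC4: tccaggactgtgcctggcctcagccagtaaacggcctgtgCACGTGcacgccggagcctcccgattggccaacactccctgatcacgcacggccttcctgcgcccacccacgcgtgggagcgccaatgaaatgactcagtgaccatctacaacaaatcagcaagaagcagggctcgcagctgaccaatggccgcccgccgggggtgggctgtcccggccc
The TXNIP match begins at position -88 from the start and has 2 mismatches among the 12 fixed letters of the pair. With up to 2 mismatches allowed and both strands searched, 355 of 35116 promoter windows of 300 bases held such a pair (1.01%). No other window of these 6 genes held it. CACGTG, which is also part of the pair motif, was in 7.26% of all windows, and in the windows of ARRDC4 and MLX among these genes. CCAAT, searched on both strands, was found 2 times in this TXNIP window and 3 times in that of ARRDC4. ARRDC2, ARRDC3, MLX and MLXIP each had a window with 1. Of all windows, 34.6% had at least 1. All 6 genes had RefSeq windows, and these matches describe letters only, not binding.

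Total counts ran from 15440226 to 27110612 per library, and the 6 B cell markers examined, among them MS4A1 (which encodes CD20), CD79A and PAX5, were present in every library, at 12.2 CPM (counts scaled to a library total of 1000000) or more. The T cell, natural killer and myeloid marker lists each summed to at most 1.34 CPM per library, stromal markers to at most 5.32 CPM, and CD3G had no count in either line. Of the 2 epithelial markers, EPCAM was at 30.1 to 39.1 CPM in U2932, where KRT8 averaged at most 0.0687 CPM per condition. In TMD8 KRT8 averaged 2.05 to 2.32 CPM and EPCAM at most 0.153 CPM. Replicate 2 of OF and of isotype in TMD8 differed from that line's remaining 4 libraries, with 3.73% and 3.99% of counts on mitochondrial genes against 5.7% to 6.23%, and 7.16% and 6.5% on ribosomal protein genes against 10% to 10.8%. In U2932 the ribosomal protein share was 4.44% to 4.74% in isotype libraries and 6.03% to 6.56% in antibody libraries. The part of these shares in the results was not tested, and beside the TMD8 results that they touch stand the values without those 2 libraries. Without them, OF and isotype in TMD8 have 1 library each, and within that line only the 2 R libraries give a spread. Tests in that fit are therefore not used as support.

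In U2932, TXNIP, ARRDC3 and ARRDC4 fell with both antibodies, by 1.87-fold to 2.53-fold, while ARRDC2, MLX and MLXIP did not pass the test. A gene was called when its Benjamini-Hochberg adjusted p in edgeR's quasi-likelihood test was under 0.10 and its change was at least 1.5-fold. By this rule 3 of 6 genes were lower with R, where 10.2% of the 14635 genes tested were called (5.02% lower), and 3 of 6 were lower with OF, where 11.1% were called (5.21% lower). The median log2 fold change over the 6 genes was -0.57 for R and -0.44 for OF, against -0.02 and 0.01 over all genes tested. The 2 antibodies were compared with the same isotype libraries, so these counts are not independent of each other. The 6 genes were listed with earlier results of these data known. The counts and medians therefore describe the list and do not test it.

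TXNIP (ENSG00000265972, GRCh38 chr1:145992435-145996600, minus strand, protein coding) was at 84.7 and 95 CPM in the U2932 isotype libraries, normalized by TMM within the line. It was at 33.1 and 38 CPM with R and at 39.7 and 39.4 CPM with OF. All 4 antibody libraries were below both isotype libraries. Here and below, such a separation is a description only, and the share of all genes that show it was not counted. The log2 fold change was -1.34 (SE 0.104, adjusted p 6.3e-10) for R and -1.18 (SE 0.103, adjusted p 4.7e-09) for OF, a 2.53-fold and a 2.27-fold lower level. Counted from the lowest fold change, TXNIP ranked 132 among the 14635 genes tested with R and 181 with OF. In these bulk samples, fewer cells with the transcript and less transcript per cell cannot be told apart. R and OF differed by -0.15 (95% interval -0.37 to 0.07, adjusted p 0.91), and did not pass.

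ARRDC3 (ENSG00000113369, chr5:91368724-91383359, minus strand), which encodes an adaptor linked to the turnover of the β2-adrenergic receptor, fell in the same comparisons. Its U2932 isotype libraries were at 79.1 and 94.4 CPM. The R libraries were both at 41.7 CPM and the OF libraries at 46.5 and 46.2 CPM, again with no overlap. It fell by 1.06 on the log2 scale with R (SE 0.103, adjusted p 2.3e-08) and by 0.91 with OF (SE 0.102, adjusted p 3.2e-07). R minus OF was -0.15 (95% interval -0.37 to 0.06, adjusted p 0.91). ARRDC3-AS1, a long noncoding RNA on the opposite strand that shares 145 of ARRDC3's 4934 exon bases, had 21 to 34 counts per U2932 library and did not pass the test (log2 fold change 0.40 for R, adjusted p 0.402, and 0.18 for OF, adjusted p 0.735).

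ARRDC4 (ENSG00000140450, chr15:97960698-97973838, plus strand), the family's other target of MLXIP and MLX, was measured in U2932 at a much lower depth. Its counts were 105 and 94 in the isotype libraries, 35 and 44 with R, and 37 and 32 with OF. These are 4.93 and 4.31 CPM for isotype, 2.06 and 2.43 CPM for R, and 2.27 and 1.89 CPM for OF. Both antibody groups lay below the isotype group. The log2 fold change was -1.03 for R (SE 0.233, adjusted p 0.00146) and -1.15 for OF (SE 0.239, adjusted p 6.6e-04). R minus OF was 0.12 with a wide interval (-0.44 to 0.67, adjusted p 0.959).

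**Figure D1:**
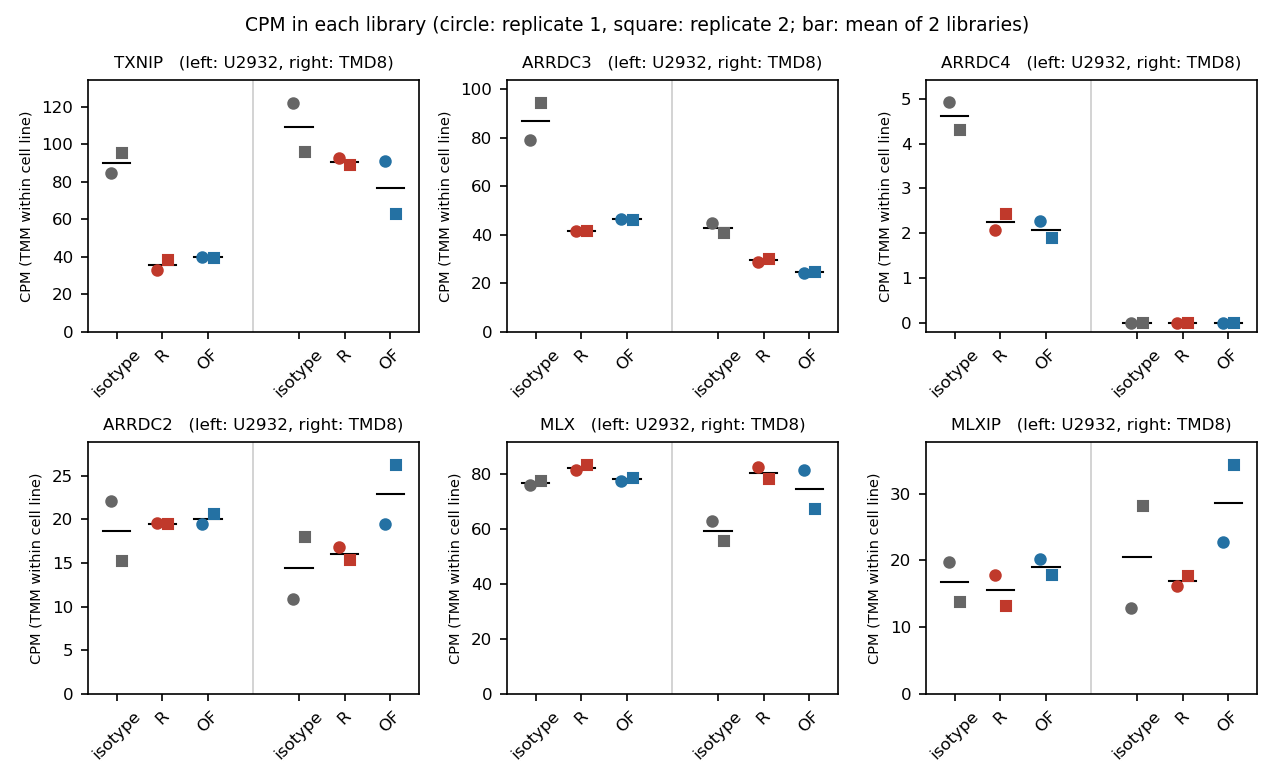
CPM of the 6 genes in each of the 12 libraries (vertical axis, TMM within each cell line, from 0 except for a small margin below 0 for ARRDC4), by antibody (horizontal axis), with circles for replicate 1, squares for replicate 2 and a bar at the mean of 2 libraries. TXNIP, ARRDC3 and ARRDC4 in U2932 show antibody libraries well below the isotype libraries, and ARRDC4 is at 0 in all TMD8 libraries.

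The genes that carry the sensing step itself were nearly level in U2932. MLX (ENSG00000108788, chr17:42567068-42573239, plus strand), the obligate partner of MLXIP, was at 76 and 77.5 CPM with isotype, 81.3 and 83.1 CPM with R, and 77.2 and 78.6 CPM with OF. Its log2 fold change was 0.10 for R (95% interval -0.09 to 0.29, adjusted p 0.464) and 0.02 for OF (95% interval -0.17 to 0.21, adjusted p 0.889). MLX shares 770 of its 4259 exon bases with PSMC3IP on the opposite strand, and whether counting used the strand is not given in the sources used here, so reads there cannot be told apart. PSMC3IP, a meiotic recombination cofactor, had log2 fold changes of 0.46 (adjusted p 0.00105) for R and 0.32 (adjusted p 0.016) for OF, below the 1.5-fold limit.

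MLXIP (ENSG00000175727, chr12:122078722-122147347, plus strand) was at 19.7 and 13.7 CPM with isotype, 17.8 and 13.2 CPM with R, and 20.2 and 17.8 CPM with OF in U2932. The 3 groups overlapped. The log2 fold change was -0.11 for R (95% interval -0.43 to 0.21, adjusted p 0.658) and 0.19 for OF (95% interval -0.13 to 0.50, adjusted p 0.387). ARRDC2 (ENSG00000105643, chr19:18001132-18014102, plus strand), a less studied adaptor of the family, was at 22.1 and 15.2 CPM with isotype, on both sides of the R libraries (19.6 and 19.4 CPM) and the OF libraries (19.5 and 20.6 CPM). Its log2 fold change was 0.06 for R (95% interval -0.22 to 0.35, adjusted p 0.781) and 0.10 for OF (95% interval -0.18 to 0.39, adjusted p 0.63). In this fit, with 2 libraries per condition, the intervals for MLX, ARRDC2 and MLXIP lay within 1.5-fold in either direction in both comparisons. With 1 library left out, the OF value of MLXIP ranged from -0.05 to 0.46, so for it this limit depends on single libraries. For MLX it holds for counts that can include PSMC3IP reads.

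For R against OF in U2932, 0 of these 6 genes passed the limit used for this comparison (adjusted p under 0.30 and at least 1.5-fold), where 0.00683% of genes did. At an unadjusted p under 0.05, 5.1% of all genes differed and again 0 of these 6, and DESeq2 also called 0 of them. The largest difference among them was that of MLXIP, at -0.30 (95% interval -0.62 to 0.03).

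**Figure D2:**
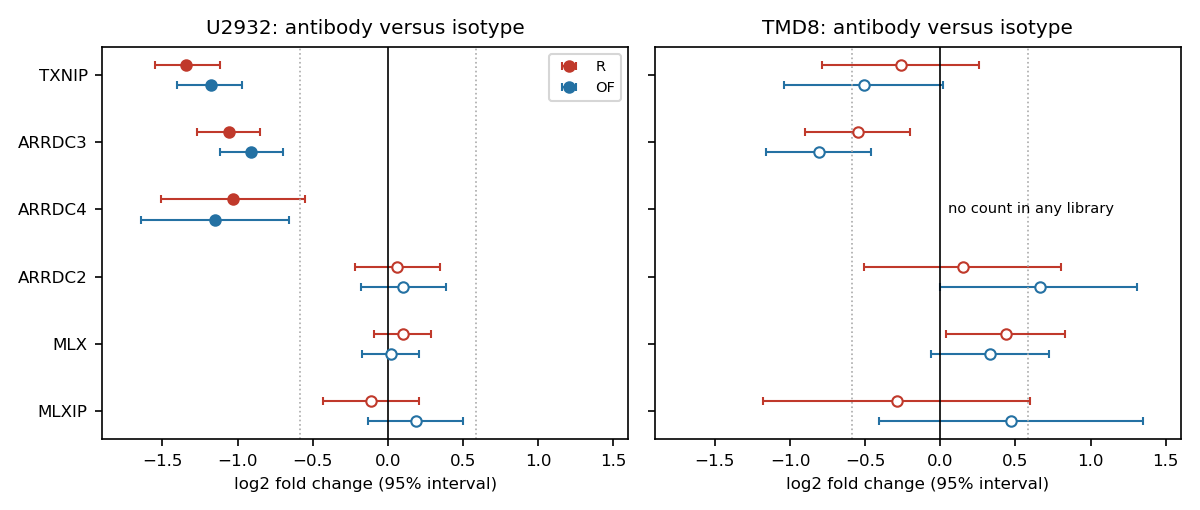
Log2 fold change of each gene against isotype (horizontal axis) with its 95% interval, for R (red) and OF (blue) in U2932 (left) and TMD8 (right); filled points were called and dotted lines mark 1.5-fold. In U2932 the points of TXNIP, ARRDC3 and ARRDC4 lie between -1.34 and -0.91, and in TMD8 no gene was called.

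In TMD8 none of these genes passed the test in the fit without a block. ARRDC3 stood lowest against isotype with each antibody, TXNIP was lower by a smaller amount with wide intervals, and ARRDC4 had no count at all. With R, 0 of the 5 genes tested was called, where 0.647% of the 14227 genes tested were, and with OF 0 of 5, where 0.815% were. At an unadjusted p under 0.05, ARRDC3 and MLX passed for R, where 15.9% of all genes did, and ARRDC3 and ARRDC2 for OF, where 14.1% did. TMD8 libraries differed more within a condition than U2932 libraries, with a median standard error of the R effect of 0.251 against 0.124. With the replicate number as a block, taken here to mark the culture, the share of genes called was 11% for R and 9.75% for OF, and 0 and 2 of the 5 genes were called. Deviations of same-numbered TMD8 libraries correlated at 0.69 for OF with isotype, but at 0.22 and 0.23 for R with OF and isotype. Results with the block for R in TMD8 therefore rest on a weak pairing. The median log2 fold change over the 5 genes was -0.26 for R and 0.33 for OF, beside -0.02 and -0.01 over all genes tested.

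TXNIP in TMD8 was at 122 and 95.9 CPM with isotype, at 92.4 and 88.9 CPM with R, and at 90.8 and 62.7 CPM with OF. All 4 antibody libraries were below both isotype libraries, but the isotype libraries were further apart than the gap to the R libraries. The log2 fold change was -0.26 for R (SE 0.222, 95% interval -0.79 to 0.26, adjusted p 0.601) and -0.51 for OF (SE 0.223, 95% interval -1.04 to 0.02, adjusted p 0.371). Within a culture, TXNIP differed from isotype by -0.40 and -0.11 for R and by -0.43 and -0.61 for OF. Without OF replicate 2 and isotype replicate 2, the values were -0.43 for R and -0.44 for OF, both below 1.5-fold.

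ARRDC3 in TMD8 was at 45 and 40.9 CPM with isotype, at 28.9 and 29.9 CPM with R, and at 24.3 and 24.6 CPM with OF. The 3 groups did not overlap. The log2 fold change was -0.55 for R (SE 0.147, adjusted p 0.165) and -0.81 for OF (SE 0.148, adjusted p 0.106), neither of which passed. With the culture number as a block, ARRDC3 fell with OF (log2 fold change -0.81, SE 0.131, adjusted p 0.0115). It was also called for OF by DESeq2 (adjusted p 0.012), and for R after a correction for GC content (-0.68, adjusted p 0.0876). Without the 2 libraries that stood apart, the values were -0.62 for R and -0.90 for OF. ARRDC3 has a GC content of 37.6% in its longest annotated coding transcript, against a median of 48.5% over the genes tested in TMD8.

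ARRDC4 had 0 counts in all 6 TMD8 libraries. At a floor of 3 counts per library, its level in TMD8 isotype libraries was at most 0.139 CPM on average (normalized over all 12 libraries), against 4.41 CPM in U2932 isotype libraries, so the level in U2932 was at least 31.7-fold higher. The same bound was 11.3-fold with R and 9.91-fold with OF. These floors cover counting error only. No antibody effect on ARRDC4 can be given for TMD8.

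ARRDC2 in TMD8 was at 10.9 and 18 CPM with isotype, at 16.8 and 15.3 CPM with R, and at 19.5 and 26.2 CPM with OF. The OF libraries were above both isotype libraries, and the R libraries lay between them. Its log2 fold change was 0.15 for R (SE 0.275, adjusted p 0.832) and 0.66 for OF (SE 0.274, adjusted p 0.351). With the culture number as a block, ARRDC2 rose with OF (0.67, SE 0.2, adjusted p 0.0767), in the opposite direction to ARRDC3. The difference within a culture was 0.83 and 0.54 for OF. With the GC correction added to the block it was not called (0.53, adjusted p 0.0848). Leaving out 1 library moved the value without a block between 0.36, without isotype replicate 1, and 1.07, without isotype replicate 2 (adjusted p 0.0957), and it was 0.43 without OF replicate 2. Without the 2 libraries that stood apart, ARRDC2 was at 0.55 for R (below 1.5-fold) and 0.83 for OF.

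MLX in TMD8 was at 62.8 and 55.5 CPM with isotype, 82.4 and 78 CPM with R, and 81.4 and 67.3 CPM with OF. Every antibody library was above both isotype libraries. The log2 fold change was 0.44 for R (SE 0.166, adjusted p 0.27) and 0.33 for OF (SE 0.166, adjusted p 0.427), so neither passed. Without the 2 libraries that stood apart the values were 0.35 and 0.36, below 1.5-fold. PSMC3IP, which shares exon bases with MLX, was at 32.5 and 24 CPM with isotype, 37 and 36.3 CPM with R, and 32.3 and 23.7 CPM with OF (log2 fold change 0.38, adjusted p 0.45, and -0.01, adjusted p 0.99).

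MLXIP was the least reproducible of these genes in TMD8. It was at 12.9 and 28.1 CPM with isotype, 16.1 and 17.6 CPM with R, and 22.8 and 34.3 CPM with OF, with the higher value of the isotype and OF pairs in the 2 libraries that stood apart. Its log2 fold change was -0.29 for R (SE 0.374, adjusted p 0.739) and 0.47 for OF (SE 0.371, adjusted p 0.634). Without those 2 libraries it was 0.38 for R (below 1.5-fold) and 0.81 for OF. The direction for R therefore turned with these libraries. With 1 library left out, the OF value lay between 0.04, without isotype replicate 1, and 1.15, without isotype replicate 2 (adjusted p 0.0991), and it was 0.15 without OF replicate 2. R and OF differed in 0 of the 5 genes in TMD8 (0% of all genes called by edgeR, also 0 of these 5 by DESeq2). At an unadjusted p under 0.05, 4.09% of all genes differed, and at that p 0 of these 5 did. The widest difference, of MLXIP, was -0.76 (95% interval -1.66 to 0.13).

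The difference between the lines was tested directly, as the effect of an antibody in U2932 minus that in TMD8, in a fit of all 12 libraries. For TXNIP this difference was -1.07 for R (SE 0.247, 95% interval -1.61 to -0.52, adjusted p 0.152) and -0.68 for OF (SE 0.247, 95% interval -1.22 to -0.13, adjusted p 0.457). With the culture number as a block it was -1.08 for R (SE 0.173, adjusted p 0.00971) and -0.66 for OF (SE 0.173, adjusted p 0.0936), and both passed. In the fit without the block 0 of the 5 genes that could be compared was called for either antibody (ARRDC4 had no counts in TMD8), beside 0.321% of the 16187 genes tested for R and 0.105% for OF, which became 4.76% and 2.19% with the block. At an unadjusted p under 0.05, TXNIP and ARRDC3 passed for R and TXNIP for OF, where 11.9% and 8.46% of all genes did.

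For R the TXNIP difference was also called by DESeq2 (adjusted p 0.01) and after the GC correction (-0.98, adjusted p 0.0938). Without the 2 TMD8 libraries that stood apart it was -0.91. With 1 library left out it ranged from -1.24 to -0.91. It was called only without TMD8 OF replicate 1, TMD8 OF replicate 2 or TMD8 isotype replicate 1, and in no other fit of this kind. The OF libraries are not part of the R difference, and its value barely moved without either of them (-1.07 and -1.06). These calls are therefore not added support. For OF the difference without the 2 TMD8 libraries that stood apart was -0.76. With 1 library left out it was between -0.91, without TMD8 OF replicate 2, and -0.39, without TMD8 OF replicate 1, and was not called. For ARRDC3 the difference between the lines was -0.50 for R (95% interval -0.88 to -0.12, adjusted p 0.284) and -0.09 for OF (95% interval -0.47 to 0.29, adjusted p 0.975), and it was not called under the block either.

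Without anti-CD20 antibody, 2 of the 6 genes were called between the lines, ARRDC3 and ARRDC4, both higher in U2932. Of all genes 56.1% were called (28.1% higher in U2932). ARRDC4 had no counts in TMD8 and passed the filter only through U2932. Its direction was therefore fixed beforehand, and its call is a description and not a test. ARRDC3 was 1.84-fold higher (log2 difference 0.88, SE 0.121, adjusted p 7.4e-05). TXNIP was lower in U2932 by 0.42 on the log2 scale (adjusted p 0.0569), a 1.33-fold difference that fell short of the fold limit. MLX (0.24, adjusted p 0.112), ARRDC2 (0.21, adjusted p 0.47) and MLXIP (-0.45, adjusted p 0.254) were not called. Without the 2 TMD8 libraries that stood apart, ARRDC3 was at 0.82, TXNIP at -0.57, MLX at 0.16, ARRDC2 at 0.65 and MLXIP at 0.24. Without TMD8 isotype replicate 1 in their place, ARRDC2 was at -0.10 and MLXIP at -0.90. The directions of ARRDC2 and MLXIP thus depended on which TMD8 isotype library was kept.

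Per kilobase of exon, taken over all annotated transcripts of a gene, TXNIP was highest in TMD8 with isotype, at 31.6 ± 4.92 CPM per kb (SD, n = 2, normalized over all 12 libraries). TMD8 with R (26.2 ± 0.571), U2932 with isotype (23.7 ± 1.97) and TMD8 with OF (22.1 ± 5.56) followed, and TMD8 with OF spanned 18.2 to 26.1. U2932 with OF (10.4 ± 0.0355) and R (9.37 ± 0.943) came last, and no library of these conditions reached the lowest TMD8 value. For ARRDC3 the order was by line and antibody together, from 16.8 ± 2.14 CPM per kb in U2932 with isotype and 9.15 ± 0.497 in TMD8 with isotype, through U2932 with OF (8.94 ± 0.0274) and R (8.07 ± 0.0344), to TMD8 with R (6.23 ± 0.191) and OF (5.19 ± 0.0934). TMD8 with isotype (8.8 and 9.51) overlapped U2932 with OF (8.92 and 8.96).

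Under isotype, MLX was at 17.2 ± 0.289 CPM per kb in U2932 and 14.6 ± 1.08 in TMD8. This is at the level of ARRDC3 in U2932 and below TXNIP in both lines. The lengths are not those of the transcripts expressed, so levels of different genes compare only roughly. MLXIP, the larger partner, was at 1.14 ± 0.289 and 1.55 ± 0.833 CPM per kb, ARRDC2 at 3.84 ± 0.996 and 3.29 ± 1.18, and ARRDC4 at 1.08 ± 0.101 in U2932. MLXIPL (also called ChREBP), the paralog of MLXIP that senses glucose in liver, had at most 1 count in any library.

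Over the 12 libraries, each centred on its line's mean log2 CPM, the 5 genes most like TXNIP among 12721 compared were H2AC8 (Pearson's r 0.98), NADK2, TOMM70, H2AC6 and H3C10 (0.97 each). H2AC8, H2AC6 and H3C10 encode core histones of clusters with many near-identical copies, so their counts are uncertain. NADK2 is the mitochondrial NAD kinase and TOMM70 a receptor of mitochondrial protein import. ARRDC3 followed TXNIP at r 0.92, rank 97, with 0.99 within U2932 and 0.76 within TMD8. MLX (-0.20), MLXIP (-0.36) and ARRDC2 (-0.49) had negative values over the 12 libraries. Within TMD8, whose libraries include the 2 that stood apart, these were -0.17, -0.79 and -0.93, and within U2932 -0.67, -0.15 and -0.36. ARRDC4 was not compared because TMD8 had no counts. These values describe 12 points that share 6 conditions, and the U2932 isotype libraries lie far from the rest.

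**Figure D3:**
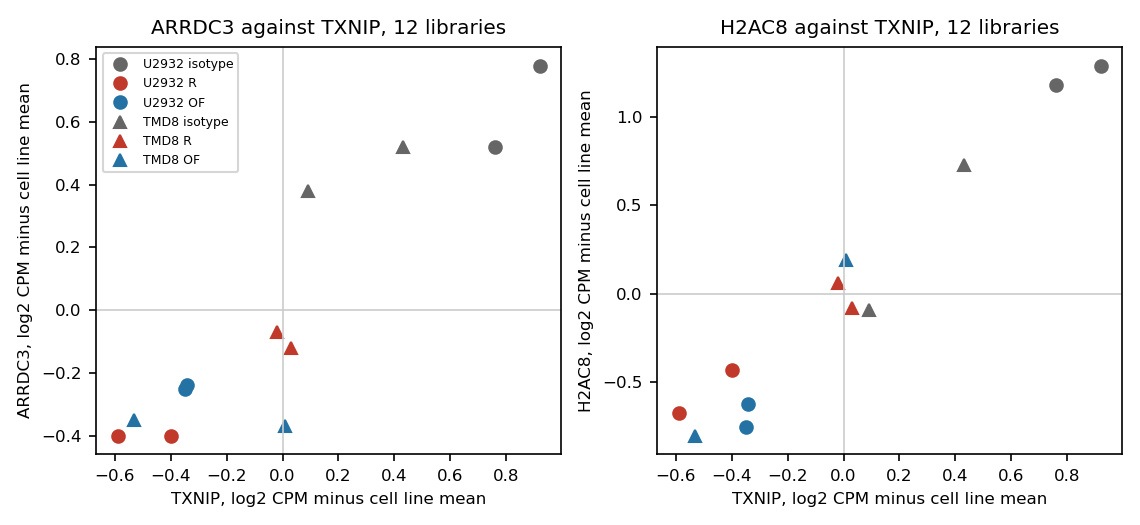
Log2 CPM of ARRDC3 (left) and H2AC8 (right) against that of TXNIP, each minus the mean of its cell line, in the 12 libraries, with circles for U2932, triangles for TMD8 and colours for the antibody. The 2 U2932 isotype libraries have the highest TXNIP values (0.76 and 0.92) and all 4 U2932 antibody libraries are between -0.59 and -0.34.

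These 5 genes were picked on the same libraries, so their fold changes only describe the choice and are given without a test. In U2932 the log2 fold changes for R and OF were -1.83 and -1.97 for H2AC8, -1.81 and -1.9 for H2AC6, and -1.29 and -1.45 for H3C10, beside -1.34 and -1.18 for TXNIP. NADK2 (-0.59 and -0.55) and TOMM70 (-0.49 and -0.52) had smaller values. In TMD8 H2AC6 was at -0.74 for R and -1.14 for OF.

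The partners of MLX and MAX, a network of E-box binding factors that oppose or assist MYC, moved in both directions in U2932. Of 11 genes, 8 were tested. With R, 1 was called higher and 2 lower, and with OF 2 higher and 2 lower, beside 10.2% and 11.1% of all genes called. MXD4, a repressor that pairs with MAX, was at 66.9 and 52 CPM with isotype, 92.2 and 91.1 CPM with R, and 98.4 and 98.9 CPM with OF, and rose with both (log2 fold change 0.63, adjusted p 6.1e-05, and 0.73, adjusted p 8.8e-06).

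MXI1, a repressor of the same family, fell with both antibodies. Its libraries were at 6.62 and 6.64 CPM with isotype, 3.42 and 4.09 CPM with R, and 3.81 and 4.43 CPM with OF (log2 fold change -0.82, adjusted p 0.00217, and -0.69, adjusted p 0.00792). Without OF replicate 1 the OF call was lost (-0.58, adjusted p 0.106). MGA, a large scaffold that binds MAX, was at 150 and 206 CPM with isotype and at 106 to 128 CPM in the 4 antibody libraries (-0.60, adjusted p 2.9e-04, and -0.68, adjusted p 7.3e-05). Without isotype replicate 2 the MGA values were -0.35 and -0.44, below 1.5-fold, and those of MXD4 were 0.46 and 0.56. MXD4 and MGA also stayed below 1.5-fold after the GC correction.

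MYC, which competes with MLXIP and MLX complexes for E-boxes, rose with OF in U2932 (0.71, adjusted p 5.5e-04) and stayed below the fold limit with R (0.43, adjusted p 0.0298). Its CPM there was low, at 8.92 and 8.39 with isotype, 13 and 10.4 with R, and 13.6 and 14.7 with OF. In TMD8 MYC was at 125 and 139 CPM with isotype, 256 and 225 CPM with R, and 299 and 304 CPM with OF. There it rose with OF (1.19, adjusted p 0.0851), and with R its value was 0.87 (adjusted p 0.104, or 0.0104 with the culture number as a block). Without the 2 libraries that stood apart these values were 1.25 and 0.94. MYC was thus higher in each antibody library than in both isotype libraries of its line.

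In TMD8 the network counts were 0 of 8 for R and 1 higher for OF, where 0.647% and 0.815% of all genes were called, and with the block 1 and 3 higher, where 11% and 9.75% were. The 3 were MYC, MXD4 (0.75, adjusted p 0.0586) and MNT, another repressor that pairs with MAX and MLX (0.92, adjusted p 0.0234). Without the 2 libraries that stood apart, MXD4 was at 0.71 for R and 1.00 for OF and MNT at 0.91 for OF. The median log2 fold change of the list was 0 and 0.08 in U2932 and 0.29 and 0.32 in TMD8, for R and OF.

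Of the thioredoxin system, 4 of 5 genes were tested in U2932. TXN, the cytosolic thioredoxin that TXNIP binds, was at 95.7 and 99.1 CPM with isotype, 147 and 168 CPM with R, and 144 in both OF libraries. It rose with R (0.70, adjusted p 2.9e-06) and was just below 1.5-fold with OF (0.57, adjusted p 4.3e-05), while TXNIP fell in the same libraries. TXN2, the mitochondrial thioredoxin, passed the adjusted p in both comparisons but not the fold limit (0.36, adjusted p 0.00313, and 0.28, adjusted p 0.0181). In the fit of all 12 libraries, with its larger spread, TXN was not called for R in U2932 (0.70, adjusted p 0.21). In TMD8 0 of 5 genes was called, also with the block, and TXN was at 99.4 and 50.3 CPM in its isotype libraries, the lower of them in replicate 2. TXN has processed pseudogenes in the table, so its counts are uncertain.

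Among 15 genes of glucose uptake and glucose 6-phosphate, 11 were tested in U2932, with 0 called for R and 1 for OF, beside 10.2% and 11.1% of all genes. That 1 was SLC2A8, an intracellular glucose transporter, at 12.4 and 10.6 CPM with isotype, 17.8 and 16 CPM with R, and 18.6 and 17.1 CPM with OF. Its value was 0.56 for R (adjusted p 0.00233, below 1.5-fold) and 0.63 for OF (adjusted p 6.7e-04). With library size alone as the scale, or after the GC correction, it was below 1.5-fold for OF (0.55 and 0.45). SLC2A1, the main basal glucose transporter and a cargo of TXNIP, was at 0.07 for R (adjusted p 0.69) and 0.25 for OF (adjusted p 0.0763) and was not called. GPI, which converts glucose 6-phosphate to fructose 6-phosphate, was at 0.30 and 0.37, below the fold limit.

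In TMD8, 12 of these 15 genes were tested, with 1 called higher for R and 2 for OF, beside 0.647% and 0.815% of all genes. With the culture number as a block 4 and 5 were called higher, beside 11% and 9.75%. SLC2A3, a high-affinity glucose transporter, was at 2.25 and 2.04 CPM with isotype, 6.25 and 6.81 CPM with R, and 7.85 and 6.25 CPM with OF. It was called higher with both (1.61, adjusted p 0.0815, and 1.72, adjusted p 0.0904), though these calls were lost in other fits given below. Without the 2 libraries that stood apart the values were 1.53 and 1.79. SLC2A14 is a near-identical copy of SLC2A3, so its counts are uncertain.

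SLC2A4, the insulin-responsive transporter of muscle and fat, rose with OF in TMD8 from few counts, 9 and 6 with isotype and 34 in both OF libraries (2.72, adjusted p 0.0966), and had 19 and 25 with R (2.02, adjusted p 0.142, or 0.0349 with the block). HK2, a hexokinase that makes glucose 6-phosphate, was at 65.8 and 118 CPM with isotype, 141 and 129 CPM with R, and 166 and 207 CPM with OF. With the block HK2 was called for both (0.61, adjusted p 0.0996, and 1.04, adjusted p 0.0225), as was SLC2A8 (0.61, adjusted p 0.0527, and 0.73, adjusted p 0.0333), and SLC2A1 for OF (0.69, adjusted p 0.0588). Without the 2 libraries that stood apart, SLC2A4 was at 1.42 for R and 2.16 for OF, and HK2 at 1.03 and 1.32. SLC2A1 was at 0.81 for OF, while SLC2A8 was below 1.5-fold (0.52 and 0.58). The calls of MYC, SLC2A3 and SLC2A4 in TMD8 without the block were lost when only the 4 libraries compared were fitted (adjusted p 0.363 for each with OF). With library size alone as the scale they were lost too (adjusted p 0.108, 0.104 and 0.112 with OF, and 0.108 for SLC2A3 with R). For OF, leaving out any 1 TMD8 library except isotype replicate 2 also lost the calls of MYC and SLC2A3. That of SLC2A4 was lost without any 1 of them.

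**Figure D4:**
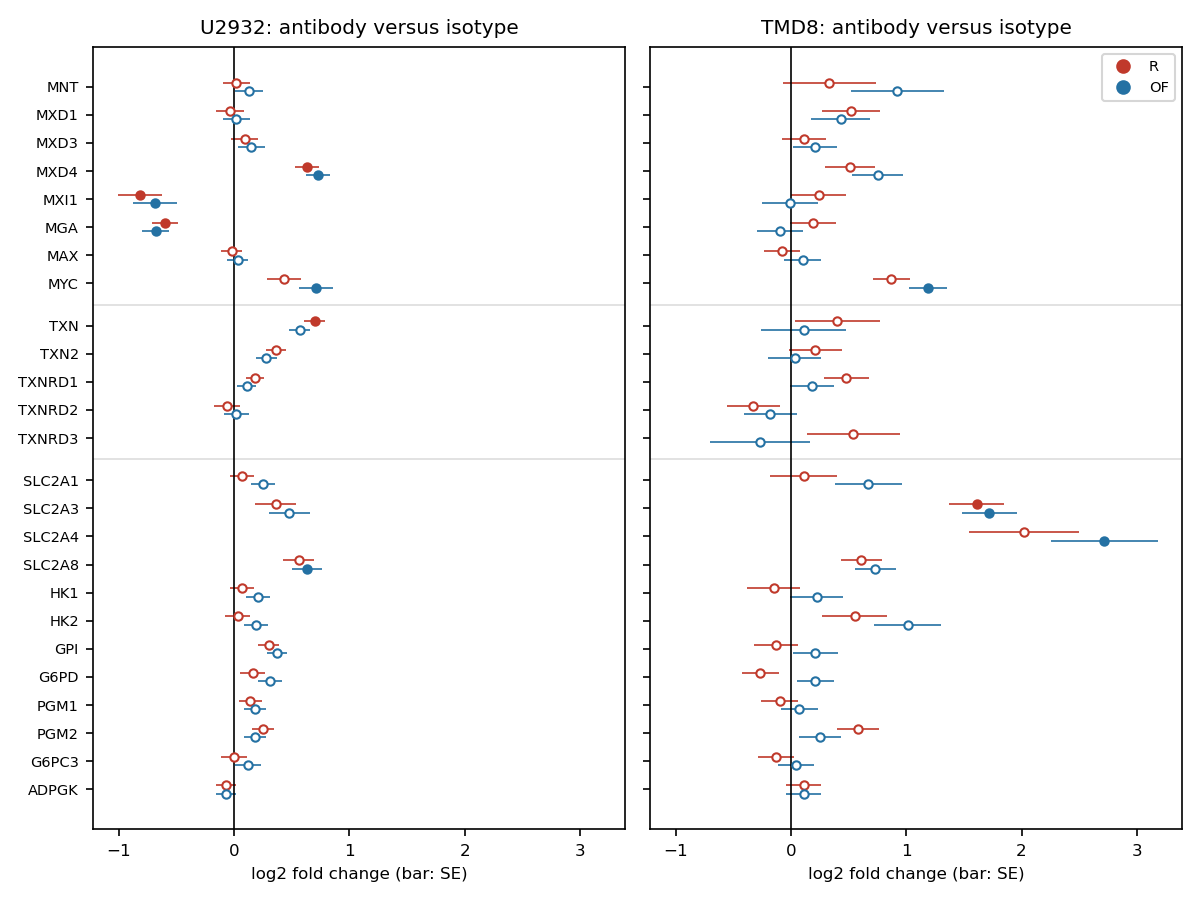
Log2 fold change against isotype with its standard error for the tested genes of the MLX and MAX network (top), the thioredoxin system (middle) and glucose uptake and glucose 6-phosphate (bottom), for R (red) and OF (blue) in U2932 (left) and TMD8 (right), with filled points for called genes. MXI1 and MGA are the called genes below 0 in U2932 and SLC2A4 has the highest value in TMD8 (2.72 for OF).

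None of the other arrestins, NEDD4-family ubiquitin ligases or subunits of AMP-activated protein kinase was called against isotype in either line in the fits without the block, with 2, 8 and 5 genes tested in U2932 and 2, 7 and 5 in TMD8. ARRB2, a β-arrestin, was at 24.2 and 19.2 CPM with isotype and 31.1 to 32.4 CPM with antibody in U2932, which passed the adjusted p (0.55, adjusted p 7.7e-04, and 0.54, adjusted p 0.00104) but not the fold limit. ITCH, a ligase that ubiquitinates TXNIP, was at -0.33 (adjusted p 0.011) and -0.40 (adjusted p 0.00254), again below 1.5-fold. PRKAG2, a regulatory subunit of AMP-activated protein kinase, was at 0.50 and 0.43. With the block in TMD8, where 11% and 9.75% of all genes were called, 2 of 7 ligases were called higher for R and 1 for OF, and ARRDC1 among the arrestins for OF (0.76, adjusted p 0.0676). Without the 2 libraries that stood apart ARRDC1 was at 0.64.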

How the data were processed

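RNA-seq libraries were made from 12 samples, 2 per condition. Per the submitters' processing notes and the paper's methods, the authors trimmed reads with Trim Galore 0.6.0, aligned them to GRCh38 with STAR 2.7.0e and used DESeq2 1.26.0. The file used here holds the raw counts per Ensembl gene that the authors deposited, without normalization. The annotation release and the strand setting are not given in the sources used here. Symbols, positions, exon lengths and GC content came from GENCODE 29 on GRCh38.

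Tests used edgeR 4.0.16 in R 4.3.3 on these counts (TMM, filterByExpr with a minimum of 10, quasi-likelihood F test, 1 mean per condition), on the 6 libraries of a line or, for comparisons between lines, on all 12. Benjamini-Hochberg adjustment covered all genes tested. Calls needed an adjusted p under 0.10 (0.30 for R versus OF in U2932) and at least 1.5-fold. On simulated data with 200 genes changed 2-fold, the test recovered 75.5% of them in R versus isotype in U2932 (14354 genes, 3.82% of calls false) and 40.5% in TMD8 (13976 genes, 7.95% false). The simulated libraries varied independently and no other genes changed, unlike in these data, so these rates need not hold here.

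The treatment protocol in the labels says that each line was split into separately kept cultures, as biological replicates, before the antibodies were added. The replicate number was taken to mark the culture, which the labels do not state outright, and a fit with it as a block was an alternative. Deviations of same-numbered libraries correlated at -0.05 to 0.10 across genes in U2932 and 0.22 to 0.69 in TMD8. Other alternatives were DESeq2 1.42.0, other scalings, filters and thresholds, a correction for GC content and leaving out libraries.

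The genes named are the 6 genes, listed pathway genes, genes that overlap the 6, and the 5 genes most correlated with TXNIP. The 6 genes and the lists were chosen with earlier results of these data known. Figures were drawn with matplotlib 3.10.9.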

Additional observations from a re-analysis of the deposited data

How the results depend on the processing

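The number of the 6 genes called against isotype in U2932 was 3 for R and 3 for OF under each of the 12 alternatives and each library left out, and the log2 fold change of TXNIP ranged from -1.44 to -1.30 for R and from -1.26 to -1.11 for OF over those alternatives. Neither comparison of R with OF called any of these genes under any alternative. In TMD8 the OF comparison called 0, but 1 with DESeq2, all 12 libraries in 1 fit, no filter, a filter of at least 10 counts in each library, the GC correction, or the GC correction with the replicate block, 2 with the replicate block, and 3 without OF replicate 2 and isotype replicate 2. Leaving out 1 library gave 0 to 3, and the 3 came without isotype replicate 2 (ARRDC2, ARRDC3 and MLXIP). The R comparison in TMD8 called 1 in place of 0 with the GC correction, alone or with the block, and without those 2 libraries. The line difference for R called 1 in place of 0 with DESeq2, library size alone, no filter, the replicate block, the GC correction, both together, and without those 2 libraries, and 0 to 1 with 1 library left out. That for OF called 1 with the replicate block, alone or with the GC correction, and without those 2 libraries. U2932 versus TMD8 under isotype called 1 in place of 2 with at least 10 counts in every library, which removes ARRDC4. Leaving out a library that leaves 1 in its condition assumes that the lone library varies like the others. Without OF replicate 2 and isotype replicate 2, OF and isotype in TMD8 rest on 1 library each. Calls counted in that setting are therefore not evidence of an effect. The block changed no other call among the 6 genes.

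Over all genes, those called in TMD8 numbered 92 for R and 116 for OF, 1565 and 1387 with the replicate block, 1932 and 1783 without those 2 libraries, 0 to 522 and 0 to 483 with 1 library left out, and 0 for R at an adjusted p under 0.05. In U2932 they numbered 1494 for R and 1625 for OF, and 800 and 904 with all 12 libraries in 1 fit.

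Directions turned only in values that did not pass in the fit reported. ARRDC2 was at -0.04 (R, U2932) and -0.01 (R, TMD8) with library size alone, and at -0.07 (OF, U2932) and 0.07 (R versus OF, U2932) with the GC correction, or -0.06 and 0.07 with the block added. MLX for OF in U2932 was at -0.06 with library size alone, -0.01 with no filter and -0.03 with the GC correction, with or without the block. MLXIP's line difference for R was at -0.04 with the GC correction and -0.08 with the block added. Without the 2 TMD8 libraries, MLXIP was at 0.38 for R in TMD8, at -0.50 in the line difference for R and at 0.24 between lines, and MLX at -0.02 for R versus OF in TMD8. With 1 library left out, ARRDC2 ranged from -0.18 to 0.35 (R, U2932), -0.14 to 0.38 (OF, U2932), -0.08 to 0 (R versus OF, U2932), -0.16 to 0.56 (R, TMD8), -0.50 to 0.25 (line difference, R) and -0.10 to 0.65 (between lines). MLXIP ranged from -0.35 to 0.17 (R, U2932), -0.05 to 0.46 (OF, U2932), -0.73 to 0.39 (R, TMD8), -0.50 to 0.65 and -0.97 to 0.18 (line differences, R and OF) and -0.90 to 0.24 (between lines). MLX ranged from -0.01 to 0.04 (OF, U2932) and -0.02 to 0.26 (R versus OF, TMD8), ARRDC3's line difference for OF from -0.22 to 0.04, and ARRDC4 for R versus OF in U2932 from -0.01 to 0.25. The causes were not tested. With 2 libraries per condition, and 32 to 105 counts for ARRDC4, small differences could not be detected.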
